A study of Mus musculus with 9 samples.

Results

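Voltage-gated sodium channels were examined through 8 subunit genes in the whole brains of control mice, diabetic mice with neuropathic pain and diabetic mice given baclofen. The 8 genes were taken by name from tables of 53465 genes, and their choice used no measured value. Of these, 5 encode alpha subunits (Scn1a, Scn2a, Scn3a, Scn8a and Scn9a) and 3 encode beta subunits (Scn2b, Scn3b and Scn4b). All 8 passed the filter on low counts that left 18501 genes for testing.

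An alpha subunit forms the pore, the voltage sensors and the inactivation gate, so that a single alpha subunit can carry the sodium current that starts an action potential. Beta subunits have a single membrane span and an extracellular immunoglobulin-like fold, and they set the gating and the surface placement of the alpha subunits. In the adult brain, channels gather at the axon initial segment and at the nodes of Ranvier. Scn1a is known for its role in fast-spiking inhibitory interneurons, Scn2a and Scn8a for excitatory neurons and their axons, Scn3a for the developing brain, and Scn9a for peripheral sensory neurons and pain.

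The mice were male C57BL/6 animals of 7 weeks at the start, with 3 libraries in each group, which the methods call biological replicates. Whether a library holds 1 brain or several is not given in the sources used here. The DNP group (diabetic neuropathic pain) was made diabetic by 4 weeks on a high-fat diet (60% fat) followed by 7 daily intraperitoneal doses of 50 mg/kg streptozotocin, which kills insulin-producing cells. Its mice entered the study at a fasting glucose of at least 16.7 mmol/L and with lower mechanical and thermal pain thresholds than controls. The BAC group had the same diabetes and entry rules. It was given the GABA-B receptor agonist baclofen by daily intraperitoneal injection of 8 mg/kg over 7 days, whereas CON and DNP mice received saline. Neither the diet nor streptozotocin is stated for the CON mice, so the diet, the toxin and the diabetes cannot be told apart in any comparison with CON.

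Library totals ran from 13107382 to 16008129 counts, of which 14397 to 26087 per library fell on the 8 genes. In bulk tissue, fewer cells of a type and less RNA per cell cannot be told apart. The libraries also differed in the regions they held. All 10 genes of a brainstem and spinal cord marker list were higher in DNP 1, BAC 1 and BAC 3 than in the other 6 libraries, with summed levels of 895 to 1140 CPM (counts scaled to equal library sizes) against 47.0 to 156 CPM, and Hoxb3, Hoxc4 and Hoxa5 had no count in those 6. The cerebellar granule cell gene Gabra6 had 4828 counts in CON 2 and none in DNP 2, DNP 3 and BAC 2, and the summed cerebellum markers ran from 121 CPM in DNP 3 to 7411 CPM in CON 2. The label of whole brain therefore covered unequal amounts of cerebellum and caudal brainstem. Neuron markers were nearer to each other in sum, at 5007 to 7784 CPM. Mitochondrially encoded genes took 4.34% to 5.36% of counts in CON, 6.68% to 7.01% in DNP and 5.94% to 7.23% in BAC.

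Of the 8 genes, 4 form a cluster of 1178 kb on chromosome 2 in the mouse genome build GRCm38, with Scn3a at chr2:65457118-65567627 on the minus strand, Scn2a at chr2:65620771-65767447 on the plus strand, Scn1a at chr2:66270778-66440840 on the minus strand and Scn9a at chr2:66480080-66634962 on the minus strand. Scn8a lies apart at chr15:100869858-101045938 on the plus strand. The beta subunit genes Scn2b (chr9:45117782-45130070) and Scn4b (chr9:45138395-45154152) are neighbours on the plus strand, 8324 bases from each other, and Scn3b lies at chr9:40269217-40291618 on the plus strand.

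The alpha subunits are close relatives, so that a short read can match more than 1 of them. Over whole transcripts, the longest stretch of identical sequence was 188 bases between Scn1a and Scn2a and 184 bases between Scn3a and Scn9a, both longer than a single read of 150 bases, and 37 to 143 bases for the other 8 pairs. The counting of reads with matches in several genes is not given in the sources used here, so how much of the counts of these genes comes from shared sequence is not known. Scn9a also shares exon sequence with Gm13629, an antisense transcript on the opposite strand. The libraries do not mark the strand, so reads of the overlap cannot be assigned to either gene.

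**Figure D1:**
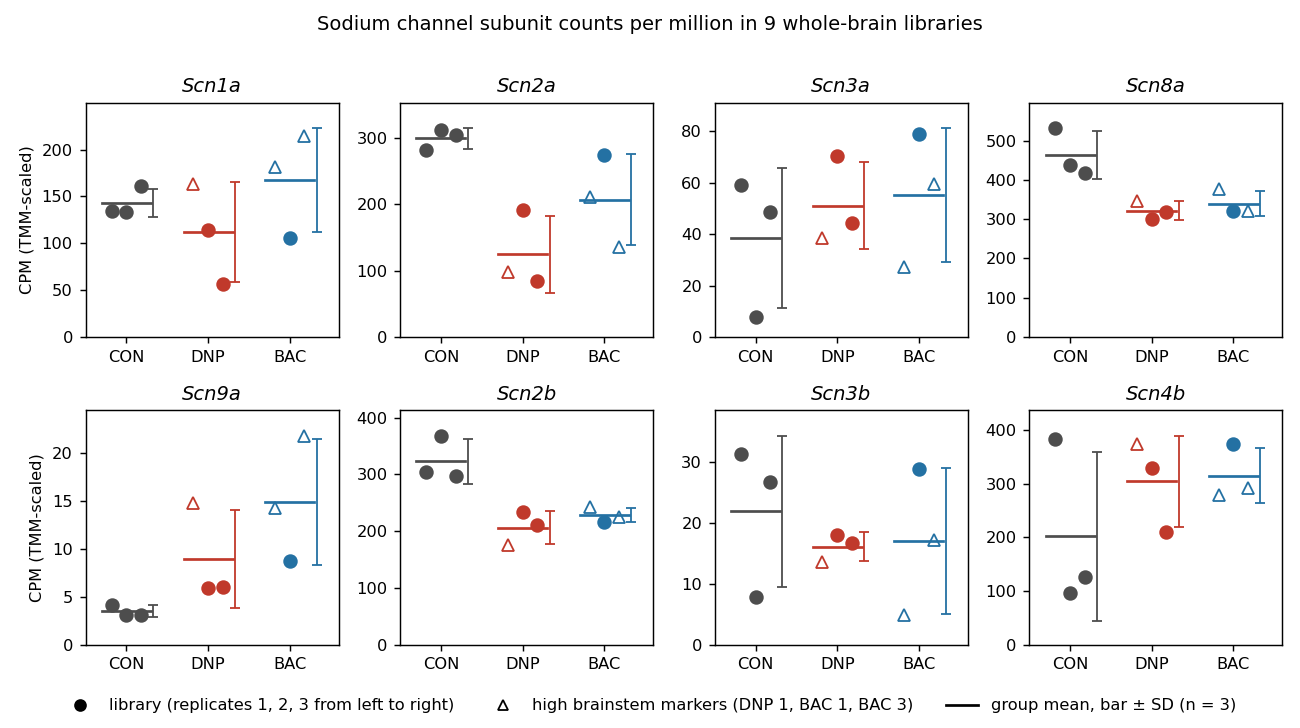
Levels of the 8 sodium channel subunit genes in CPM (y axis, counts scaled to equal library sizes by TMM) in the CON, DNP and BAC libraries (x axis). Points are libraries, triangles are the 3 libraries with high brainstem and spinal cord markers, horizontal lines are means and bars are the SD (n = 3). For Scn2a, Scn8a and Scn2b every DNP library lies below every CON library, and for Scn9a every DNP and BAC library lies above every CON library.

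Levels were first ranked within CON, since transcripts of different length can be compared only per length. In deposited FPKM (fragments per kilobase of gene length, scaled to the library total), Scn4b stood at 38.8 ± 29.2 FPKM (SD, n = 3) and Scn2b at 38.3 ± 5.98 FPKM, and these ranges overlapped. Scn2a followed at 18.2 ± 1.55 FPKM, Scn8a at 14.6 ± 1.58 FPKM and Scn1a at 5.67 ± 0.612 FPKM, each separated from the next. Scn3a at 2.13 ± 1.47 FPKM and Scn3b at 1.79 ± 0.985 FPKM overlapped, and Scn9a was lowest at 0.171 ± 0.0253 FPKM. The deposited lengths count overlapping exon variants more than once, by a factor of 1 for Scn4b to 2.20 for Scn1a. Per kilobase of non-overlapping exon sequence, Scn8a at 29.3 ± 3.89 CPM per kb in CON stood above Scn2a at 23.6 ± 1.23 CPM per kb, so the order of these alpha subunits depends on the length used. In both units Scn9a had the lowest mean of the 8 in every group, and in BAC its range overlapped with that of Scn3b.

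In DNP the FPKM order changed to Scn4b, Scn2b, Scn8a, Scn2a, Scn1a, Scn3a, Scn3b and Scn9a, with Scn8a at 10.5 ± 0.757 FPKM overlapping Scn2a at 7.75 ± 3.58 FPKM, and Scn2a overlapping Scn1a at 4.56 ± 2.17 FPKM. In BAC, Scn2a at 13 ± 4.03 FPKM again had a higher mean than Scn8a at 11.3 ± 1.41 FPKM, but their ranges overlapped. Per kilobase of non-overlapping exon sequence Scn8a had the highest mean of the alpha subunits in each group, at 20.4 ± 1.49 CPM per kb in DNP and 21.5 ± 2.05 CPM per kb in BAC.

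Among the alpha subunits, the comparison of DNP with CON asks whether diabetes with neuropathic pain goes with another level of channel RNA in the brain. Scn2a had 282, 312 and 305 CPM in CON and 98.3, 191 and 84.7 CPM in DNP. All 3 DNP libraries lay below the lowest CON library, and DNP 2 lay nearest to it. The fitted level was 2.41-fold lower in DNP (log2 fold change −1.27, SE 0.35, unadjusted p = 0.00567, adjusted p = 0.323, edgeR).

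Scn8a, the alpha subunit of mature nodes of Ranvier, had 532, 439 and 417 CPM in CON and 347, 301 and 317 CPM in DNP. The groups did not overlap, and the spread within DNP was the narrower. The fitted level was 1.44-fold lower (log2 fold change −0.52, SE 0.15, unadjusted p = 0.00789, adjusted p = 0.328, edgeR). Scn8a has the longest gene length of the 8 in the deposited tables (30728 bases), and with an offset for gene length its log2 fold change was −0.21 (adjusted p = 0.667, edgeR).

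Scn9a was the alpha subunit whose DNP libraries all lay above CON. It had 4.18, 3.14 and 3.09 CPM in CON, from 44 to 63 counts, and 14.8, 5.94 and 5.98 CPM in DNP, from 87 to 205 counts. DNP 1 was the highest by far, and the other DNP libraries still lay above every CON library. The fitted level was 2.56-fold higher (log2 fold change 1.36, SE 0.46, unadjusted p = 0.0163, adjusted p = 0.365, edgeR), and without DNP 1 the log2 fold change was 0.78.

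The remaining alpha subunits did not separate the groups. Scn1a had 135, 134 and 161 CPM in CON and 164, 115 and 56.9 CPM in DNP, so that DNP 1 was above all CON libraries and DNP 3 was less than any of them (log2 fold change −0.36, SE 0.38, adjusted p = 0.772, edgeR). Scn3a had 59.0, 7.70 and 48.7 CPM in CON and 38.7, 70.3 and 44.4 CPM in DNP, with CON 2 far below the rest (log2 fold change 0.41, SE 0.66, adjusted p = 0.865, edgeR). Without CON 2 the estimate for Scn3a was −0.081.

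Of the beta subunits, Scn2b, which is bound to the alpha subunit by a disulfide bridge, had 304, 369 and 297 CPM in CON and 176, 233 and 210 CPM in DNP. The groups did not overlap. The fitted level was 1.57-fold lower in DNP (log2 fold change −0.65, SE 0.16, unadjusted p = 0.00288, adjusted p = 0.294, edgeR), and 0.294 was also the smallest adjusted p among all genes tested in this comparison. The adjustment can give the same value to many genes, so this does not place Scn2b first among them.

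Scn4b, the other disulfide-linked beta subunit, had 383, 95.7 and 127 CPM in CON and 374, 329 and 210 CPM in DNP. CON 1 lay above all DNP libraries, whereas CON 2 and CON 3 lay below them (log2 fold change 0.59, SE 0.49, adjusted p = 0.686, edgeR). Without CON 1 the log2 fold change was 1.45 (adjusted p = 0.395). Scn3b, which binds without a disulfide bridge, had 31.2, 7.77 and 26.7 CPM in CON and 13.5, 18 and 16.7 CPM in DNP (log2 fold change −0.44, SE 0.64, adjusted p = 0.844, edgeR). Its DNP libraries all lay between CON 2 and the other CON libraries.

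Over the 8 genes together, edgeR gave 0 with an adjusted p under 0.05 in DNP versus CON, where 0% of all tested genes passed. At an unadjusted p under 0.05 there were 4 genes, Scn2a, Scn8a and Scn2b lower and Scn9a higher, against 11.2% of all tested genes (5.46% lower and 5.71% higher). The same 4 had groups that did not overlap, against 18.2% of all tested genes. The median log2 fold change of the 8 genes was −0.40, and that of all tested genes was 0.01. With DESeq2, the tool named in the study's methods, 3 of the 8 had an adjusted p under 0.05, namely Scn2a (0.0345), Scn8a (0.0377) and Scn2b (0.00719), among 346 genes (1.87%) that DESeq2 called. Scn9a had an adjusted p of 0.136 with DESeq2. Over 22 alternative fits, DESeq2 included, the adjusted p ran from 0.0345 to 0.637 for Scn2a, 0.0377 to 0.667 for Scn8a, 0.00719 to 0.628 for Scn2b and 0.136 to 0.666 for Scn9a.

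**Figure D2:**
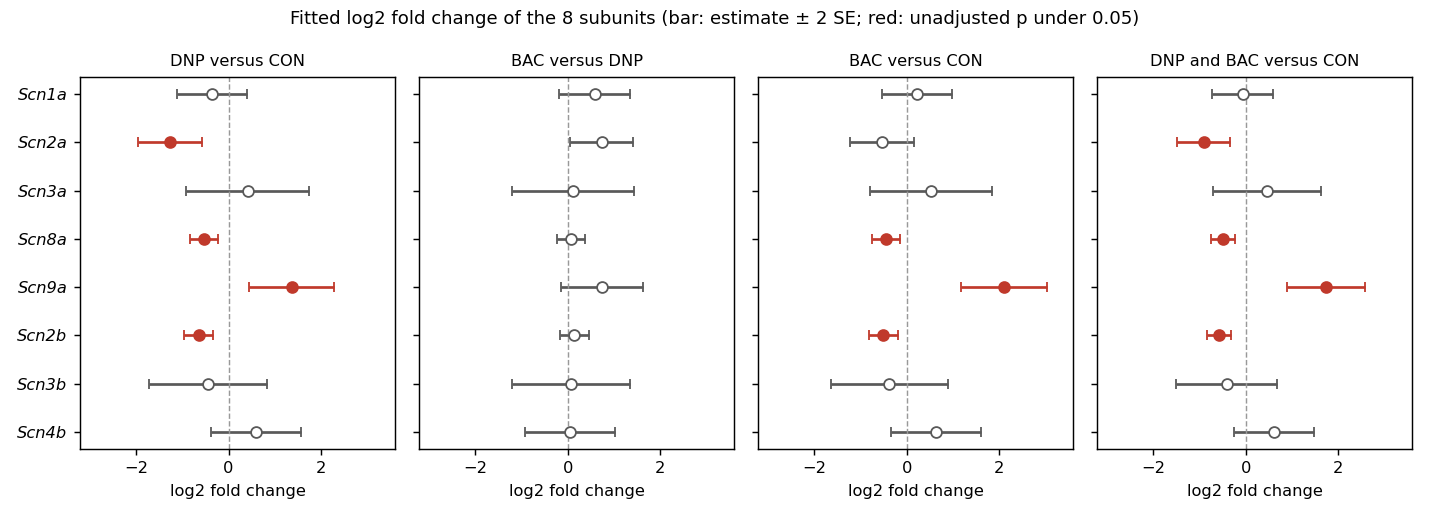
Fitted log2 fold change (x axis) of each subunit gene (y axis) in 4 comparisons, from the edgeR fit of 9 libraries, with bars of 2 SE to each side. Red points have an unadjusted p under 0.05. These are Scn2a, Scn8a, Scn2b (lower) and Scn9a (higher) in DNP versus CON, and none in BAC versus DNP.

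The comparison of BAC with DNP asks whether baclofen treatment goes with a change from the untreated diabetic state. It shares its DNP libraries with DNP versus CON, so high or low DNP libraries move both estimates in opposite directions. Scn2a had 212, 274 and 136 CPM in BAC against 98.3, 191 and 84.7 CPM in DNP. The groups overlapped, as BAC 3 lay below DNP 2 (log2 fold change 0.73, SE 0.34, unadjusted p = 0.0621, adjusted p = 0.998, edgeR). Scn9a had 14.2, 8.70 and 21.9 CPM in BAC, from 126 to 347 counts. BAC 1 and BAC 2 lay below DNP 1 (log2 fold change 0.74, SE 0.44, unadjusted p = 0.128, adjusted p = 0.998, edgeR), and without DNP 1 the log2 fold change was 1.33.

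Scn1a had 182, 106 and 214 CPM in BAC, where BAC 2 lay within the DNP range and the other libraries above it (log2 fold change 0.58, SE 0.38, adjusted p = 0.998, edgeR). Scn8a had 377, 321 and 321 CPM in BAC, a range that overlapped with DNP (log2 fold change 0.08, SE 0.15, adjusted p = 0.998, edgeR), which with 2 SE spans −0.23 to 0.38. Scn2b had 242, 217 and 225 CPM in BAC, also within reach of DNP (log2 fold change 0.14, SE 0.16, adjusted p = 0.998, edgeR), which with 2 SE spans −0.17 to 0.46. The intervals of Scn3a (−1.20 to 1.43), Scn3b (−1.20 to 1.35) and Scn4b (−0.92 to 1.02) were wide.

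None of the 8 genes had an unadjusted p under 0.05 in BAC versus DNP with edgeR, against 2.37% of all tested genes, and none had groups that did not overlap, against 6.79%. All 8 fitted values were above 0, with a median of 0.13 against −0.01 over all tested genes, but with the length offset Scn8a was at −0.068, and without BAC 2 the values of Scn3a, Scn3b and Scn4b were −0.24, −0.54 and −0.093. DESeq2 gave 0 with an adjusted p under 0.05 and 1 with an unadjusted p under 0.05, which was Scn2a.

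BAC versus CON asks how far treated diabetic brains stood from controls. Scn9a was 4.30-fold higher in BAC (log2 fold change 2.1, SE 0.46, unadjusted p = 0.00159, adjusted p = 0.628, edgeR), and each BAC library held more than any CON library. With the cerebellum and brainstem marker scores as covariates its log2 fold change was 0.73 (adjusted p = 0.498, edgeR), no longer with an unadjusted p under 0.05. Scn2b was 1.42-fold lower (log2 fold change −0.50, SE 0.16, unadjusted p = 0.0114, adjusted p = 0.628) and Scn8a 1.36-fold lower (log2 fold change −0.45, SE 0.15, unadjusted p = 0.0176, adjusted p = 0.628), both without overlap. With the region scores as covariates Scn2b was at −0.20, and with the length offset Scn8a was at −0.28, and neither then had an unadjusted p under 0.05. Scn2a was lower without overlap as well, BAC 2 at 274 CPM being nearest to CON 1 at 282 CPM, but the fit gave a log2 fold change of −0.53 with SE 0.34 (unadjusted p = 0.155, edgeR). At an unadjusted p under 0.05 there were 3 of the 8 genes, against 7.76% of all tested genes (3.3% lower and 4.46% higher), and 4 had groups that did not overlap, against 13.4%. No gene of the table had an adjusted p under 0.05 with edgeR. DESeq2 called Scn9a (adjusted p = 0.00781, the lowest of 22 alternatives, of which the highest was 1.000), among 101 genes or 0.547%.

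The 6 diabetic libraries set together against CON gave the same 4 genes. Scn2b had a log2 fold change of −0.58 (SE 0.13, unadjusted p = 0.00214), Scn9a of 1.73 (SE 0.42, unadjusted p = 0.00289), Scn8a of −0.49 (SE 0.13, unadjusted p = 0.00495) and Scn2a of −0.90 (SE 0.29, unadjusted p = 0.0127), with adjusted p of 0.304 to 0.341 by edgeR. With the region scores Scn2b was at −0.28, Scn9a at 0.54 and Scn2a at −0.38, and with the length offset Scn8a was at −0.25, none with an unadjusted p under 0.05. Without these terms 4 of the 8 passed at an unadjusted p under 0.05, against 11.8% of all tested genes (5.42% lower and 6.42% higher). These 4 were also the genes whose 6 diabetic libraries all lay on 1 side of the 3 CON libraries, against 6.95% of all tested genes. DESeq2 called Scn2b (adjusted p = 0.00527), Scn9a (0.00704) and Scn8a (0.0227), among 360 genes or 1.95%, while the highest adjusted p over the alternatives was 0.669 for each of these 3. This comparison contains the libraries of the preceding ones and adds no libraries to them.

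The make-up of the alpha subunits was then described as each gene's share of the summed alpha subunit FPKM, with no test. Scn2a took 44.6 ± 4.49% (SD, n = 3) in CON, 28.9 ± 8.61% in DNP and 36.7 ± 10.0% in BAC. Its share was 39.9% to 48.8% in CON and 22.6% to 38.7% in DNP, without overlap. Scn8a took 35.9 ± 3.57% in CON, 41.1 ± 8.91% in DNP and 31.9 ± 3.29% in BAC, with overlap between all groups.

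Scn3a took 5.18 ± 3.56% in CON and 11.3 ± 2.66% in DNP, and Scn9a took 0.420 ± 0.0570% in CON, 1.75 ± 0.935% in DNP and 2.24 ± 1.14% in BAC. The summed alpha level was 40.8 ± 0.634 FPKM in CON, 26.2 ± 4.92 FPKM in DNP and 35.3 ± 2.00 FPKM in BAC. The 3 group ranges of that sum, 40.1 to 41.4, 20.9 to 30.7 and 33 to 36.9 FPKM, did not overlap. Among all tested genes, taken singly in CPM, 18.2% did not overlap in DNP versus CON, 13.4% in BAC versus CON and 6.79% in BAC versus DNP. Of the 5 alpha subunits, 0 separated BAC from DNP. Most of the difference between CON and DNP lay in Scn2a and Scn8a, the alpha subunits with the highest FPKM.

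Of the summed beta subunit FPKM, Scn2b took 52.5 ± 19.1% in CON and 29.4 ± 7.57% in DNP, and Scn4b took 45.2 ± 18.7% and 69.0 ± 8.01%. CON 1, with a Scn4b share of 66.1%, resembled the diabetic libraries in this, whose Scn4b share was 61.0% to 77.0%. The summed beta level was 79.0 ± 26.7 FPKM in CON, 87.7 ± 15.7 FPKM in DNP and 93.8 ± 6.67 FPKM in BAC, with overlapping ranges.

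**Figure D3:**
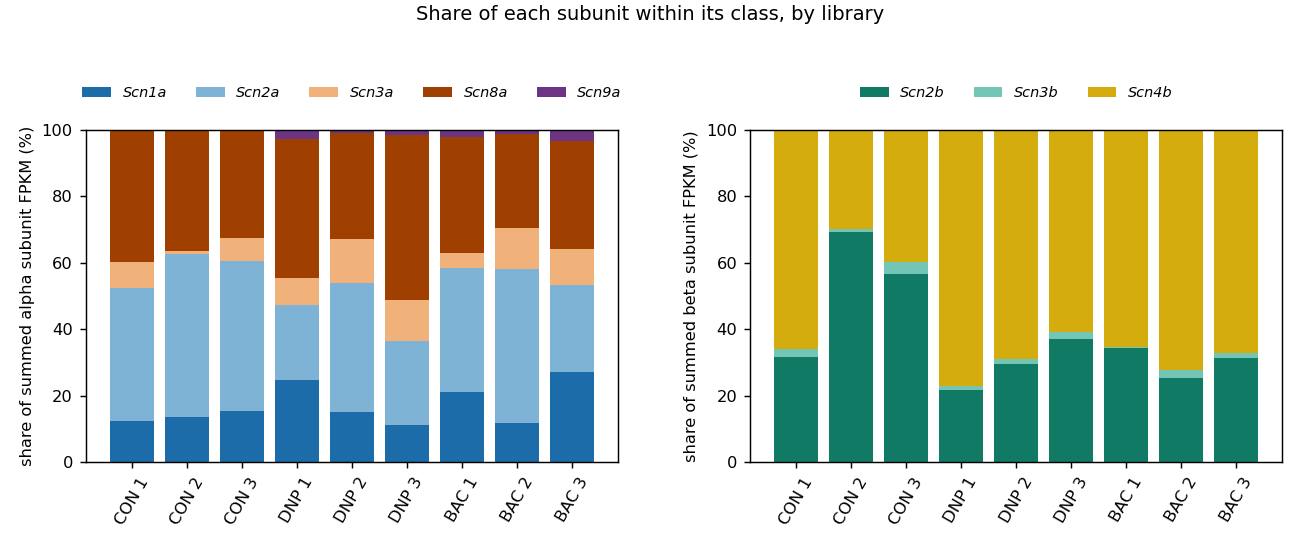
Share of each alpha subunit (left) and beta subunit (right) in the summed FPKM of its class (y axis, percent) in each library (x axis). Colours mark the genes. The Scn2a share was 39.9% to 48.8% in the CON libraries and 22.6% to 38.7% in the DNP libraries, and Scn4b was the largest beta share in all DNP and BAC libraries.

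The subunits varied unequally between libraries. The biological coefficient of variation from the fit was 19.7% for Scn8a and 19.8% for Scn2b, 32.1% for Scn2a, 34.8% for Scn1a, 40.5% for Scn9a and 42.8% for Scn4b, and 54.4% for Scn3b and 55.7% for Scn3a, against 36.5% in common over all genes. A log2 fold change of a given size was therefore least certain for Scn3a and Scn3b.

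Some of the differences of Scn1a, Scn3a, Scn3b, Scn4b and Scn9a between libraries went along with regional markers. Scn3a and Scn3b had their lowest levels in CON 2 (7.70 and 7.77 CPM) and BAC 1 (27.4 and 4.79 CPM), the libraries with the highest summed cerebellum markers (7411 and 3739 CPM). Scn4b, which is abundant in striatal neurons, was highest in CON 1, DNP 1 and BAC 2, of which CON 1 and BAC 2 had striatum marker sums of 1505 and 2230 CPM, whereas DNP 1 had the lowest sum of all (304 CPM). Scn9a was highest in BAC 3, DNP 1 and BAC 1, the 3 libraries with high brainstem and spinal cord markers. Scn1a was also highest in these, at 214, 164 and 182 CPM, with CON 3 next at 161 CPM. Among libraries without those markers, Scn9a was at 5.94 and 5.98 CPM in DNP and 8.70 CPM in BAC, still above the 3.09 to 4.18 CPM of CON. These diabetic libraries had no count of the cerebellar gene Gabra6, whereas CON had 42 to 4828.

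Summed hypothalamus markers, another region in which Scn9a is expressed, were 1.57 to 6.90 CPM in CON, 6.59 to 31.3 CPM in DNP and 15.8 to 23.8 CPM in BAC. Only 4 of the 8 list genes passed the filter on low counts, so shares of all tested genes are not a like comparison. Of the 8, 1 was higher in all diabetic libraries than in all CON libraries, against 6.95% of all tested genes that did not overlap. This was Pmch, with 2 counts each in DNP 2, BAC 1, BAC 2 and CON 1, so its separation rested on scaling to library size. In DNP versus CON, 2 of the 8 were higher and 1 lower without overlap, against 18.2% of all tested genes. These also had few counts, at 2 to 6 in DNP for Hcrt and 2 to 32 for Pmch (higher) and 5 to 8 for Agrp (lower). In BAC versus CON, 3 were higher and 0 lower, against 13.4%. Counts of the list genes were unequal, at 0 to 8 in the 9 libraries for Hcrt and 1 to 399 for Trh. The part of the hypothalamus markers in the Scn9a difference was not tested. Of the list for peripheral sensory neurons, where Scn9a is best known, Prph and Calca were high in the 3 libraries with brainstem markers (283 to 458 and 100 to 197 counts), and both are also expressed by brainstem and spinal neurons. The other genes of that list had fewer counts there, at 2 to 3 for Scn10a, 1 to 4 for Scn11a, 2 to 5 for Trpv1 and 9 to 27 for Avil. The summed level of that list was 29.9 to 48.4 CPM in those 3 libraries and 3.21 to 7.43 CPM in the other 6, and its part in the Scn9a difference was not tested. The antisense transcript Gm13629 had 139 to 149 counts in those 3 libraries and 35 to 91 counts in the other 6, of which CON had 62 to 91, and its part in the Scn9a counts was not tested.

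The regional differences were treated in 2 ways beside the fit of all 9 libraries. Without DNP 1, BAC 1 and BAC 3, the log2 fold change in DNP versus CON was −1.14 for Scn2a, −0.60 for Scn8a, −0.56 for Scn2b and 0.77 for Scn9a. Each of these had an unadjusted p under 0.05, with adjusted p of 0.455 to 0.467 (edgeR). The diabetic libraries left in this fit, DNP 2, DNP 3 and BAC 2, had no count of Gabra6, whereas CON had 42 to 4828. This fit therefore cannot tell diabetes from missing cerebellum. In BAC versus CON, which then rested on the single library BAC 2, it was 1.31 for Scn9a and −0.14 for Scn2a. With the cerebellum and brainstem marker scores as covariates, Scn8a was at −0.76 in DNP versus CON (adjusted p = 0.375, edgeR), Scn2a at −0.84, Scn2b at −0.36 and Scn9a at 0.35, and Scn2a, Scn2b and Scn9a no longer had an unadjusted p under 0.05. With these covariates Scn3b was at −1.82 with an unadjusted p under 0.05 (adjusted p = 0.394, edgeR), and Scn3a and Scn4b turned to −1.22 and −0.80.

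**Figure D4:**
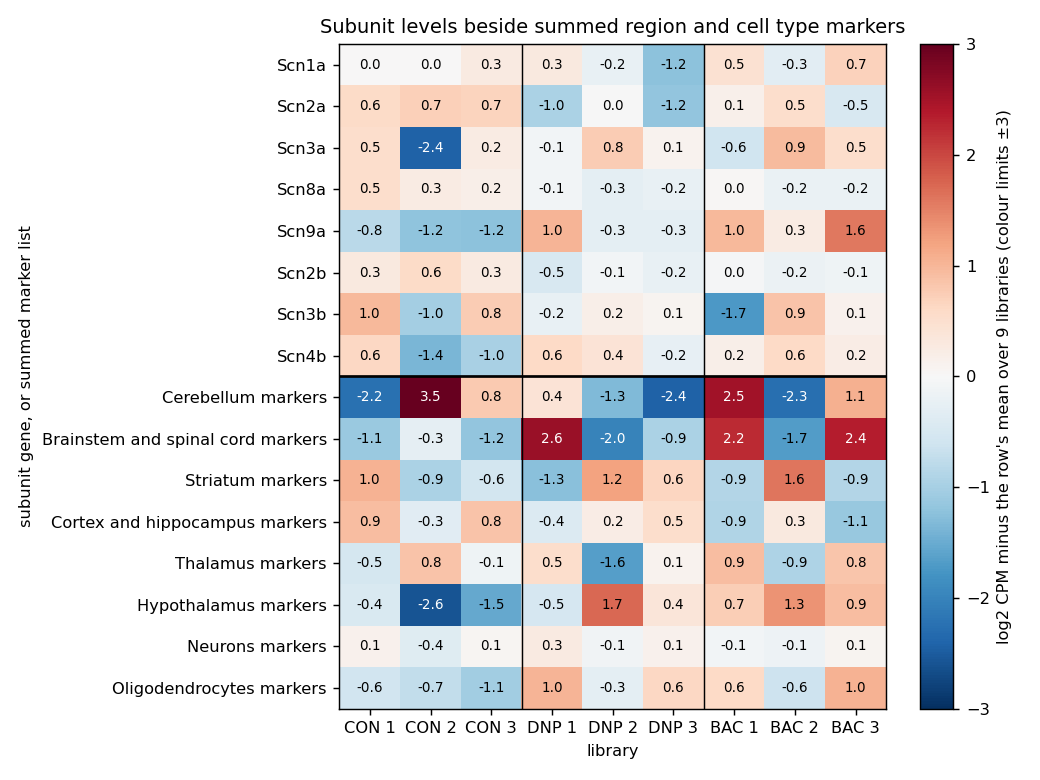
Level of each subunit gene (upper rows) and summed level of each marker list (lower rows) in the 9 libraries (columns), as log2 CPM minus the mean of the row, in colour and numbers. Brainstem and spinal cord markers are high in DNP 1, BAC 1 and BAC 3, where Scn9a and Scn1a are also highest. Cerebellum markers are highest in CON 2, where Scn3a is lowest.

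**Figure D5:**
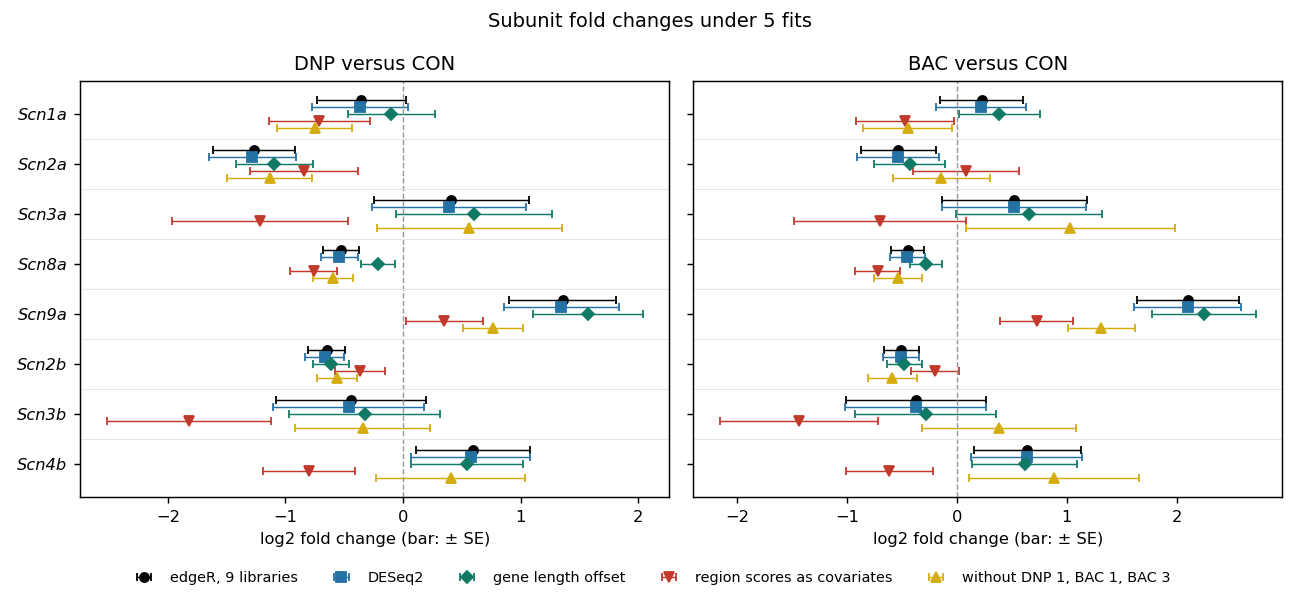
Log2 fold change (x axis, bars of 1 SE) of each subunit gene (y axis) in DNP versus CON (left) and BAC versus CON (right) under 5 fits. Scn2a, Scn8a and Scn2b lie below 0 and Scn9a above 0 in DNP versus CON in all 5, whereas Scn3a and Scn4b lie above 0 in 4 and below 0 with the region scores as covariates.

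Oligodendrocyte markers, the myelin genes of the cells that wrap axons between the nodes, were higher in sum in DNP than in CON. In BAC their sum overlapped with CON. Their summed level was 2193 to 3066 CPM in CON, 3677 to 9158 CPM in DNP and 2956 to 9366 CPM in BAC, and 6 of the 7 genes were higher in all DNP libraries than in all CON libraries, where 18.2% of all tested genes had groups that did not overlap. In BAC this held for 1 of the 7, against 13.4%. The libraries with high brainstem and spinal cord markers, DNP 1, BAC 1 and BAC 3, held 9158, 6892 and 9366 CPM, and DNP 3 held 6975 CPM. Summed neuron markers overlapped between groups, at 5007 to 7015 CPM in CON and 5997 to 7784 CPM in DNP. The part of the oligodendrocyte markers and of the mitochondrial share in the lower Scn2a, Scn8a and Scn2b values was not tested.

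Other sodium channel genes gave context. Scn7a had 9 to 89 counts and the sensory channel Scn10a 1 to 32, with no unadjusted p under 0.05. Scn11a (1 to 12 counts) and the muscle channel Scn4a (0 to 4 counts) were too low to be tested.

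Genes that place, modify or work beside the channels were followed as lists. In DNP versus CON, 5 of 18 intracellular partners and anchors of the axon initial segment and node had an unadjusted p under 0.05, all lower, and none had an adjusted p under 0.05 (edgeR), where 5.46% of all tested genes were lower at that p. Their median log2 fold change was −0.26, against 0.01 over all tested genes. The 3 with the smallest p were Fgf14, which binds the tail of the alpha subunits (log2 fold change −0.76, SE 0.20), Gpr158, a G protein-coupled receptor (−0.63, SE 0.18), and Cntnap1, which builds the junctions beside the node (−0.66, SE 0.20). In BAC versus DNP, 1 of the 18 had an unadjusted p under 0.05 and was higher, which was Fgf14 (log2 fold change 0.57, adjusted p = 0.998, edgeR), where 1.37% of all tested genes were higher at that p.

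In DNP versus CON, 2 of 14 regulators and trafficking genes were higher and 1 lower at an unadjusted p under 0.05, where 5.71% of all tested genes were higher and 5.46% lower. They included Dpysl2, which encodes the collapsin response mediator CRMP2 (log2 fold change 0.51, SE 0.18), and Nedd4, a ubiquitin ligase (−1.23, SE 0.47). In BAC versus DNP, Nedd4 was at 1.49 (SE 0.47, adjusted p = 0.998, edgeR), with an unadjusted p under 0.05. Of the 4 genes of the sodium leak channel complex, Unc80 was lower (−0.65, SE 0.21, unadjusted p = 0.0144), and Nalcn, its pore (−0.27, SE 0.17), and Fam155a (−0.19, SE 0.16) did not pass. Among the sodium pump genes, the beta subunit genes Atp1b1 and Atp1b3 were each at 0.32 without passing. None of these lists had a gene with an adjusted p under 0.05.

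For each subunit the tested genes with at least 1 CPM, 16783 in number, were ranked by the Pearson correlation of log2 CPM over the 9 libraries. The most alike were AW551984 (r = 0.991), Glp1r (0.983) and Arhgap36 (0.982) for Scn9a, Alg10b (0.976), 9930021J03Rik (0.949) and Zfp609 (0.949) for Scn2a, and Bcl2l13 (0.941), Inpp4a (0.941) and Sugt1 (0.935) for Scn8a. For Scn2b they were Msl2 (0.956), Rprd2 (0.951) and Lamc3 (0.949), and for Scn1a Ccser2 (0.971), Pde12 (0.966) and Pygo1 (0.953). Scn3a was most like Adck1 (0.979), Gm32391 (0.976) and Fam196a (0.971), Scn3b most like Pou3f3 (0.967), Gm26871 (0.967) and Gnb1 (0.960), and Scn4b most like Gpr183 (0.965), Tifab (0.951) and Catsperd (0.939). These are descriptions over libraries that share depth, group and regional make-up, and the highest of 16783 values is high by selection.

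The promoters of 6 of the 8 genes were matched by symbol in RefSeq (build GRCm38.p6, 250 bases before to 50 after the start). Those of Scn8a (70.0% G and C at its first start, with 38 CpG dinucleotides) and Scn4b (66.3%, with 26) were rich in CpG, whereas those of Scn2b (38.3%, with 2) and the first start of Scn2a (33%, with 3) were poor, against medians of 52.7% and 7 over 32851 promoters. The second starts of Scn8a (53.3%, with 12) and Scn2a (47.7%, with 9) lay nearer to these medians. So Scn8a at its first start and Scn2b, which were both lower in DNP, had promoters of unlike composition. Which start was used cannot be read from counts per gene. A search of both strands for the letters GGGCGG (in 35.7% of all promoters), CACGTG (7.15%), TATAAA (13.6%), TGACGTCA (1.79%) and TTCAGCACC (0.371%) found 1 match in the 8 windows of these genes, TATAAA at the second start of Scn2a (chr2:65668436-65668735, plus strand), shown here with the match in capitals because Scn2a had the largest difference among the lower subunits.
Scn2a second start: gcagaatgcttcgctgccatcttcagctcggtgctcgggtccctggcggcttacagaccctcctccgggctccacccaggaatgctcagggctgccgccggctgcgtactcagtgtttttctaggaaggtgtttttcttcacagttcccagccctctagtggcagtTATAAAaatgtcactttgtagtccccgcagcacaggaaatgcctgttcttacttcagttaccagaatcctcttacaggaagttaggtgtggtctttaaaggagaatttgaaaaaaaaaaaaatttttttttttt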

How the data were processed

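Poly(A)-enriched RNA of 3 CON, 3 DNP and 3 BAC whole-brain libraries was sequenced as non-strand-specific paired reads of 150 bases. The submitters' processing notes name FastQC 0.11.9, fastp, Bowtie2 2.3.4.1, HISAT2 2.1.0, StringTie 1.3.3b and the build GRCm38. The authors deposited raw counts per gene. The authors also deposited FPKM, whose values follow from the count, a gene length and the library total, with no TMM factor.

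Counts were analysed in R 4.3.3 with edgeR 4.0.16. Genes were kept by filterByExpr (minimum count 10), scaled by TMM and fitted over 9 libraries with group as the factor by the quasi-likelihood test, with Benjamini-Hochberg adjustment over 18501 genes and a threshold of 0.05. Scripts were tested on simulated data. FPKM were used only for levels and shares. Alternatives used DESeq2 1.42.0, limma 3.58.1 on log2(FPKM + 1) or log2(FPKM + 0.1), other normalizations and filters, a length offset, region scores, a replicate block and left-out libraries. Replicate numbers did not pair the libraries (same-number correlations of −0.58 to 0.56). Libraries of a group differed by far more than counting noise, with a chi-square per degree of freedom of at least 15.7. Named were all 8 genes, the other sodium channel genes, the 3 genes of each list with the smallest p in DNP versus CON and the 3 genes most like each subunit. Some genes and sequences that these rules name are not reported here. Lists and members were chosen with earlier results of these data known.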

Additional observations from a re-analysis of the deposited data

How the results depend on the processing

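Over 22 alternatives, 660 of 696 recomputed fold changes of the 8 genes kept their direction and their side of the adjusted threshold. With DESeq2, 3 genes passed it in DNP versus CON, 1 in BAC versus CON and 3 in diabetic versus CON, against 0 with edgeR. At an unadjusted p under 0.05, region scores as covariates gave 2, 1 and 2 genes in these comparisons, against 4, 3 and 4. Scn8a passed in each, and Scn3b, which did not pass without them, in DNP versus CON and diabetic versus CON. The length offset gave 3, 2 and 3, without Scn8a. In BAC versus DNP, where the count was 0, it was 1 with DESeq2, with no filter, with limma on log2(FPKM + 1) or log2(FPKM + 0.1), with region scores and with the replicate block, Scn2a each time. With each library left out in turn the count was 3 to 5, 0 to 2, 2 to 3 and 4 to 5 in DNP versus CON, BAC versus DNP, BAC versus CON and diabetic versus CON. In BAC versus DNP these were Scn1a and Scn9a without DNP 1, Scn9a without BAC 2, and Scn2a without DNP 2 or BAC 3. The replicate block gave Scn2a in BAC versus DNP a log2 fold change of 0.77 with an unadjusted p under 0.05, and changed no other count of the 8 genes.

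Several estimates that had no unadjusted p under 0.05 changed sign. With region scores, Scn3a and Scn4b were at −1.22 and −0.80 in DNP versus CON, −0.70 and −0.62 in BAC versus CON and −0.96 and −0.71 in diabetic versus CON, and in BAC versus CON Scn1a was at −0.47 and Scn2a at 0.082. The length offset put Scn8a at −0.068 in BAC versus DNP and Scn1a at 0.14 in diabetic versus CON. Limma put Scn3b at −0.042 and −0.19 in BAC versus DNP. Without DNP 1, BAC 1 and BAC 3 together, chosen after seeing the data, Scn2b was at −0.028 in BAC versus DNP, Scn1a at −0.45 and Scn3b at 0.39 in BAC versus CON, and Scn3b at 0.021 in diabetic versus CON. With each library left out in turn, the range was −0.081 to 0.86 for Scn3a in DNP versus CON, −0.24 to 0.44 for Scn3a, −6.42e-05 to 0.14 for Scn8a, −0.54 to 0.52 for Scn3b and −0.16 to 0.23 for Scn4b in BAC versus DNP, −0.99 to 0.067 for Scn3b in BAC versus CON, and −0.26 to 0.092 for Scn1a and −0.022 to 0.91 for Scn3a in diabetic versus CON.

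Per non-overlapping exon length, a choice made after seeing the data, the CON shares were 18.6% for Scn1a, 34.2% for Scn2a and 42.4% for Scn8a, and the BAC share of Scn8a was 36.8%. In DNP and BAC the beta shares were 41.5% and 42.8% for Scn2b, 2.77% and 2.61% for Scn3b and 55.7% and 54.6% for Scn4b. The cause of these changes was not tested, apart from the length used for the shares. Counts were lowest for Scn9a, at 44 to 347 a library, and Scn3b, at 66 to 471. The edgeR fit of 9 libraries rested on 3 libraries a group. Its coefficient of variation between libraries was 36.5% in common over all genes and 19.7% (Scn8a) to 55.7% (Scn3a) for the 8 genes. Fits with left-out libraries rested on fewer. For diabetic versus CON, a fit on the libraries compared is the fit of all 9.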
